A study of Mus musculus with 9 samples.

Results

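Histone genes and the genes that process histone mRNA were examined in immortalized mouse podocytes, a line that grows at a permissive temperature and derives from the epithelial cells of the kidney filter, after silencing of Usp40, the gene of a ubiquitin-specific protease. The members were chosen by gene symbol and numbered 83 of the 25655 genes in the deposited table. They comprised 63 replication-dependent histone genes, 8 replacement histone genes, 6 other histone genes and 6 genes of histone mRNA processing (Slbp, Lsm10, Lsm11, Npat, Casp8ap2 and Zfp473). The rule left out pseudogenes. H2bc4 and Slbp drew attention to the family in these same comparisons, so the values of this pair are given as a description and carry no test.

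The cells fell into 3 groups of 3 libraries, transfected with siRNA 2 against Usp40, with siRNA 1 against Usp40, or with a commercial negative control siRNA. All groups were wild type, were grown at 33 °C in medium with interferon-γ, were held at 37 °C for 10 to 14 days to differentiate, and gave RNA 48 h after a lipid transfection. RNA was selected by its poly(A) tail and read in pairs of 36 bases on strand-specific libraries, all in batch 1. The labels call the libraries biological replicates and do not name separate cultures, so the spread behind each p-value is that among these libraries and may be technical. The model has limits in its own markers, since Nphs1, a gene of the slit diaphragm, had 2 counts over all 9 libraries and Ptpro and Tcf21 had 0, while Synpo, Podxl and Cd2ap were detected.

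Library depth ran from 9786270 to 13675426 gene counts, and 11800 genes had enough counts to be tested. The targeted gene Usp40 had 190, 222 and 295 counts with siRNA 2, 173, 174 and 196 with siRNA 1, and 371, 365 and 503 with the control. Its log2 fold change against the control was -0.88 ± 0.112 with siRNA 2 and -1.18 ± 0.115 with siRNA 1 (SE, edgeR adjusted p = 0.00047 and 0.000727). The summed level of 5 tubule markers, in CPM (counts scaled to the library total), was 124 to 172 with siRNA 2, 85.1 to 127 with siRNA 1 and 74.3 to 112 with the control, nearly all of it on Lrp2, while Slc34a1, Umod, Aqp2 and Slc12a1 each held under 10 counts over all libraries. The 5 immune markers summed to 52.2 to 56.7 with siRNA 2, 56.0 to 62.9 with siRNA 1 and 61.1 to 63.0 with the control, with Adgre1 and Itgam at 0. Over all libraries Csf1r held 4807 counts, Cd68 1245 and Ptprc 212. Ptprc had 7, 14 and 13 counts with siRNA 2, 35, 35 and 33 with siRNA 1, and 28, 23 and 24 with the control. The part of these shifts in the histone values was not tested.

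As background, replication-dependent histone genes supply the core and linker histones that package newly copied DNA, and they lie in clusters whose mRNAs normally end in a short stem-loop in place of a poly(A) tail. SLBP binds that stem-loop, and the U7 particle, with its proteins LSM10 and LSM11, positions the cut behind it. Replacement histones are made through the whole cell cycle from spliced or solitary genes with ordinary polyadenylated mRNAs. In libraries selected for poly(A), a changed amount of a replication-dependent mRNA and a changed share of it that carries a poly(A) tail cannot be told apart. In bulk RNA, fewer cycling cells and less histone RNA in each cell cannot be told apart either.

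The stem-loop is the sequence that separates the classes, so its forms are shown first. It was searched on the coding strand of GRCm39 within 200 bases after the stop codon, as a perfect 6-base stem that opens with GG, a 4-base loop, and T before and A after the loop. It was present in 58 of 63 replication-dependent genes (92.1%), in 1 of 8 replacement genes and in 3 of 6 other histone genes. Of 21530 annotated protein-coding transcripts, those of these members included, 87 held it (0.404%). In the members the stem-loop began 22 to 59 bases after the stop codon. H2bc21, H2bc22, H2bc23, H2bc24 and H2ac22 held no match in this window. Capitals mark the paired stem and lower case the loop.
38 members including H2bc4, H1f2, H2bc9, H2ac24, H2ac6 and H2aw: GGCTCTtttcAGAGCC
9 members including H3c3, H3c6, H3c7 and H2bc12: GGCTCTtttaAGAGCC
7 members, all H4 genes, including H4c8: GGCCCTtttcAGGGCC
H4c9 and H4c14: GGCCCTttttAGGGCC
H4c11 and H4c2: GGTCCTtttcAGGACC
H3c8: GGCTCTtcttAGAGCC
H2ac20: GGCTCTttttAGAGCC
H4c1: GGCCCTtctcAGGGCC
H2ax, the replacement gene with a match: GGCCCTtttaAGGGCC
The H2A, H2B, H3 and H1 genes thus mostly shared the stem GGCTCT, whereas H4 genes carried GGCCCT or GGTCCT. H2bc4, H1f2, H2bc9 and H2ac24 had the same stem-loop letter for letter, although their counts differed between groups in unlike ways, as given below.

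Most members were scarce. Of the 83 members, 74 had at least 10 counts over all 9 libraries, 5 had 1 to 9 and 4 had 0. Enough counts for a test were present in 35 members, namely 20 of 63 replication-dependent genes, 8 of 8 replacement genes, 1 of 6 other histone genes (H2aw) and 6 of 6 processing genes. The other 48 members together held 181 to 202 counts per siRNA 2 library, 102 to 161 per siRNA 1 library and 141 to 209 per control library. No single count among them exceeded 28.

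On the per-length scale of the deposited TPM, the 8 replacement genes summed to a higher level than the 63 replication-dependent genes in every group. H2az1, a variant of H2A placed at promoters, averaged 1729 TPM with siRNA 2, 2100 with siRNA 1 and 2533 with the control. H3f3b, which encodes histone H3.3, averaged 1268 TPM with siRNA 2, 1303 with siRNA 1 and 1368 with the control. Among replication-dependent genes, H2ac24 averaged 579 TPM with siRNA 2, 564 with siRNA 1 and 588 with the control. H1f2, a linker histone gene, averaged 137 TPM with siRNA 2, 76.9 with siRNA 1 and 66.8 with the control. H2bc4 averaged 117 ± 23.8 TPM with siRNA 2, 28.1 TPM with siRNA 1 and 13.9 ± 2.25 TPM with the control (SD, n = 3). The siRNA 2 libraries ran from 89.3 to 130.7 TPM for H2bc4 and from 130.8 to 146 TPM for H1f2, and H1f2 stood above H2bc4 in each library of that group and well above it in every control library.

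**Figure D1:**
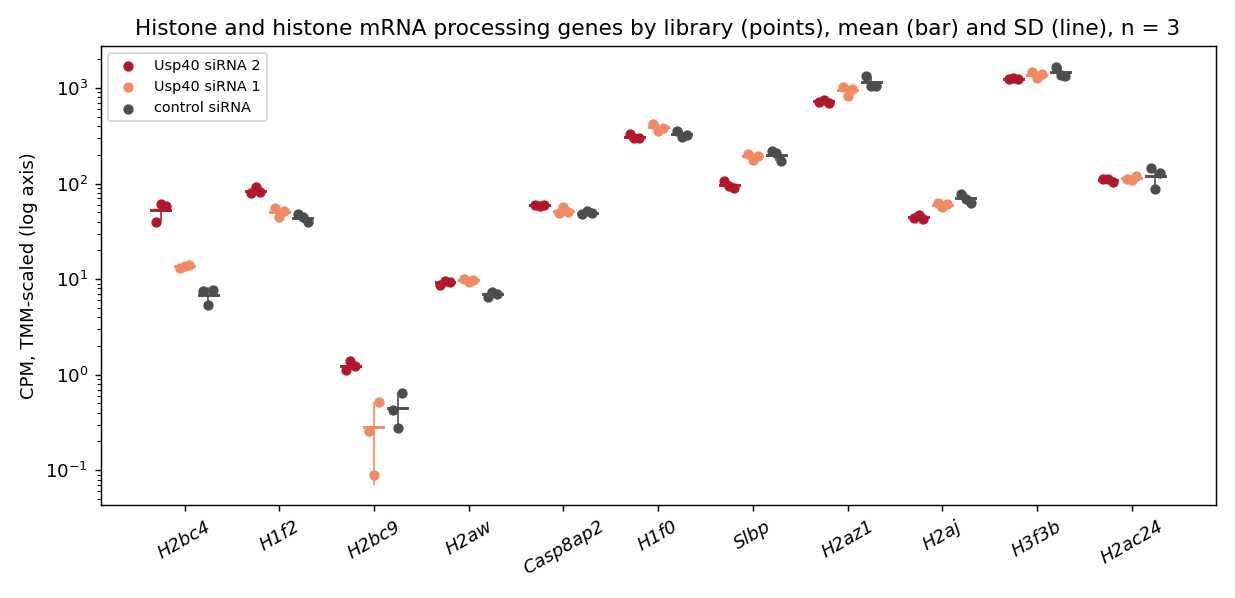
TMM-scaled CPM (log axis) of 11 members in each library, with siRNA 2, siRNA 1 and control libraries from left to right for each gene, the group mean as a bar and the SD as a line (n = 3). The siRNA 2 points of H2bc4, H1f2 and H2bc9 lie above all others of the gene, those of Slbp, H2az1 and H2aj lie below, and H2ac24 overlaps in all groups.

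H2bc4 (GRCm39 chr13:23868182-23876891), a histone H2B gene of the large chromosome 13 cluster, had the largest log2 fold change of the 35 tested members with siRNA 2. Its counts were 398, 778 and 812 with siRNA 2, 153, 154 and 165 with siRNA 1, and 87, 58 and 94 with the control. The groups did not overlap, and the order was siRNA 2 above siRNA 1 above control. In CPM, scaled here and for every single gene with edgeR's TMM factors, it averaged 53.0 ± 11.2 with siRNA 2, 13.7 ± 0.609 with siRNA 1 and 6.82 ± 1.26 with the control (SD, n = 3). The log2 fold change against the control was 2.96 ± 0.17 with siRNA 2, a 7.76-fold level, and 0.99 ± 0.19 with siRNA 1, a 1.99-fold level (SE). Between the siRNAs it was 1.96 ± 0.155. These values brought the gene to notice and are given without a test. Leaving out any library in turn kept the siRNA 2 value between 2.82 and 3.11 and the siRNA 1 value between 0.85 and 1.08. A ratio within a library needs no scaling, and the ratio of H2bc4 to H2bc21, an H2B gene in a cluster on chromosome 3, was 9.95, 12.0 and 13.3 with siRNA 2, 2.28, 2.8 and 1.76 with siRNA 1, and 1.02, 1.0 and 1.27 with the control. H2bc21 itself had 40, 65 and 61 counts with siRNA 2 and 85, 58 and 74 with the control. Its lower level with siRNA 2 adds to that ratio.

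The annotated structure of H2bc4 differs from that of most histone genes, which have a single exon. Of the other H2B genes, H2bc6, H2bc22, H2bc23 and H2bc24 likewise have 2 exons in their canonical transcript and transcripts with a poly(A) signal. All 5 GENCODE transcripts of H2bc4 join a second exon across an intron of 7445 to 7582 bases. In 4 of the 5 the first exon ends 25 to 53 bases before the stem-loop, which lies at chr13:23868630-23868645 (+ strand), so the spliced mRNA lacks it. The second exons are up to 2005 bases long, and 4 of the 5 transcripts hold a poly(A) signal (AATAAA or ATTAAA) in their last 50 bases. Counts per gene do not tell these transcripts apart. Of the 36-base words in H2bc4 exons, 14.9% also occurred in exons of another gene.

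**Figure D2:**
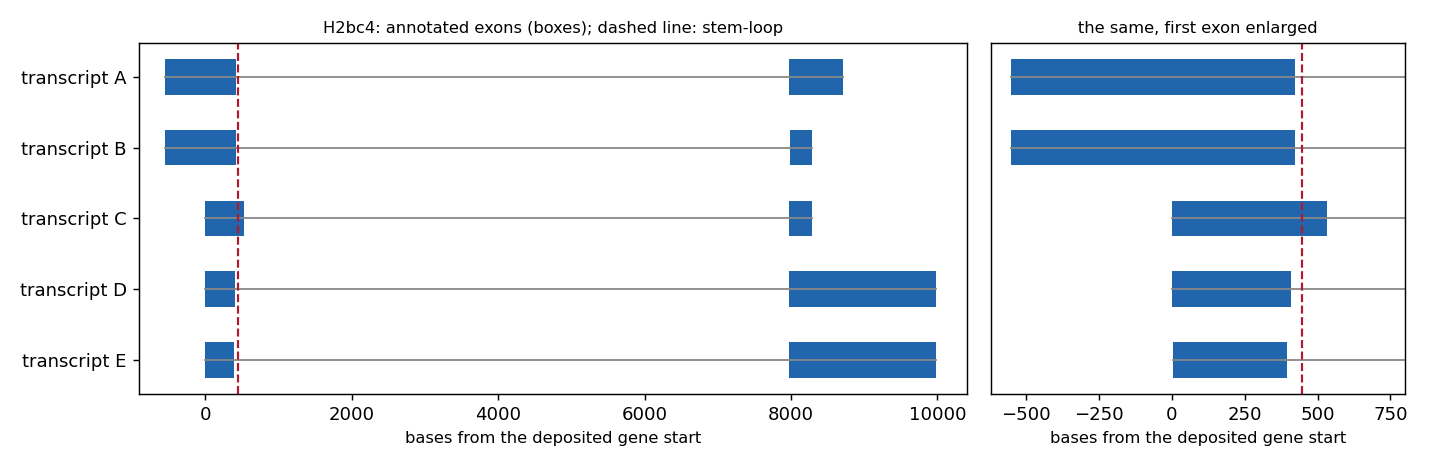
The 5 annotated H2bc4 transcripts (boxes, exons) by distance in bases from the deposited gene start, whole on the left and around the first exon on the right, with the stem-loop as a dashed line. In 4 of the 5 the first exon ends before the stem-loop and the transcript goes on in a second exon after 7445 to 7582 bases.

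Slbp (GRCm39 chr5:33792296-33809918) encodes the stem-loop binding protein. It had 1048, 1226 and 1246 counts with siRNA 2, 2416, 1990 and 2274 with siRNA 1, and 2565, 2253 and 2109 with the control. All siRNA 2 libraries were below all others, and the siRNA 1 and control libraries overlapped. Its mean CPM was 96.8 ± 8.16 with siRNA 2, 193 ± 13.7 with siRNA 1 and 200 ± 25.3 with the control (SD, n = 3). The log2 fold change against the control was -1.05 ± 0.101 with siRNA 2 and -0.05 ± 0.0984 with siRNA 1, with a 95% interval of -0.24 to 0.14 for siRNA 1. Between the siRNAs it was -1.0 ± 0.101. Slbp values, like those of H2bc4, are given without a test.

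Of the other 5 processing genes, 1 rose with siRNA 2 against the control, a comparison in which 7.81% of all 11800 genes tested rose and 8.4% fell. Casp8ap2, which encodes FLASH, a partner of LSM11 in the cleavage complex, had 60.2, 58.8 and 59.4 CPM with siRNA 2, 48.7, 57.5 and 50.7 with siRNA 1, and 48.1, 51.5 and 48.8 with the control. Its siRNA 2 libraries lay above all others. It rose by 0.26 ± 0.0765 on the log2 scale with siRNA 2 against the control (SE, edgeR adjusted p = 0.0369), and 7 of 13 alternative analyses did not call it (highest adjusted p 0.117). With siRNA 1 its log2 fold change was 0.08 (adjusted p = 0.70). For Lsm10 and Lsm11, of the U7 particle, neither was called. The log2 fold change of Lsm10 was 0.28 (siRNA 2) and 0.09 (siRNA 1), and that of Lsm11 was 0.16 (siRNA 2) and -0.04 (siRNA 1). Npat, a coactivator of histone gene transcription, had 0.22 with siRNA 2 and 0.10 with siRNA 1, and Zfp473, whose human counterpart belongs to the U7 particle, had 0.41 with siRNA 2 and -0.09 with siRNA 1, again without a call. Counts of Zfp473 are few (194 in all), and 2638 bases of it overlap Vrk3 on the opposite strand. Direct comparison of the siRNAs called none of these 5 genes.

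The H2B gene H2bc9 reached the filter's level of counts only in the 3 siRNA 2 libraries, in which it is high, so it is described without a test and left out of the counts. Over the 32 tested members other than H2bc4, Slbp and H2bc9, siRNA 2 against the control gave 3 that rose and 2 that fell, which is 15.6% against 16.2% of all genes tested. The members that rose were H1f2, H2aw and Casp8ap2, and those that fell were H2az1 and H2aj. With siRNA 1 against the control 1 of 32 rose (H2aw) and none fell, against 1.65% of all genes called (0.627% higher, 1.03% lower). An unadjusted p under 0.05 in the edgeR test was held by 5 of the 32, beside 1608 of all 11800 genes. DESeq2 called 0 of the 32 with siRNA 1. Between the siRNAs, 1 was higher with siRNA 2 (H1f2) and 2 lower (H2aj and H1f0), or 9.38% against 6.74% of all genes (2.49% higher, 4.25% lower). The share of members called was thus near that of all genes for siRNA 2 against the control. Libraries did not overlap in 12 of the 32 members for siRNA 2 against the control (37.5%, against 38.6% of all genes), in 4 for siRNA 1 against the control (12.5%, against 16.6%) and in 12 for siRNA 2 against siRNA 1 (37.5%, against 30.9%). Both comparisons with the control use the same control libraries.

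**Figure D3:**
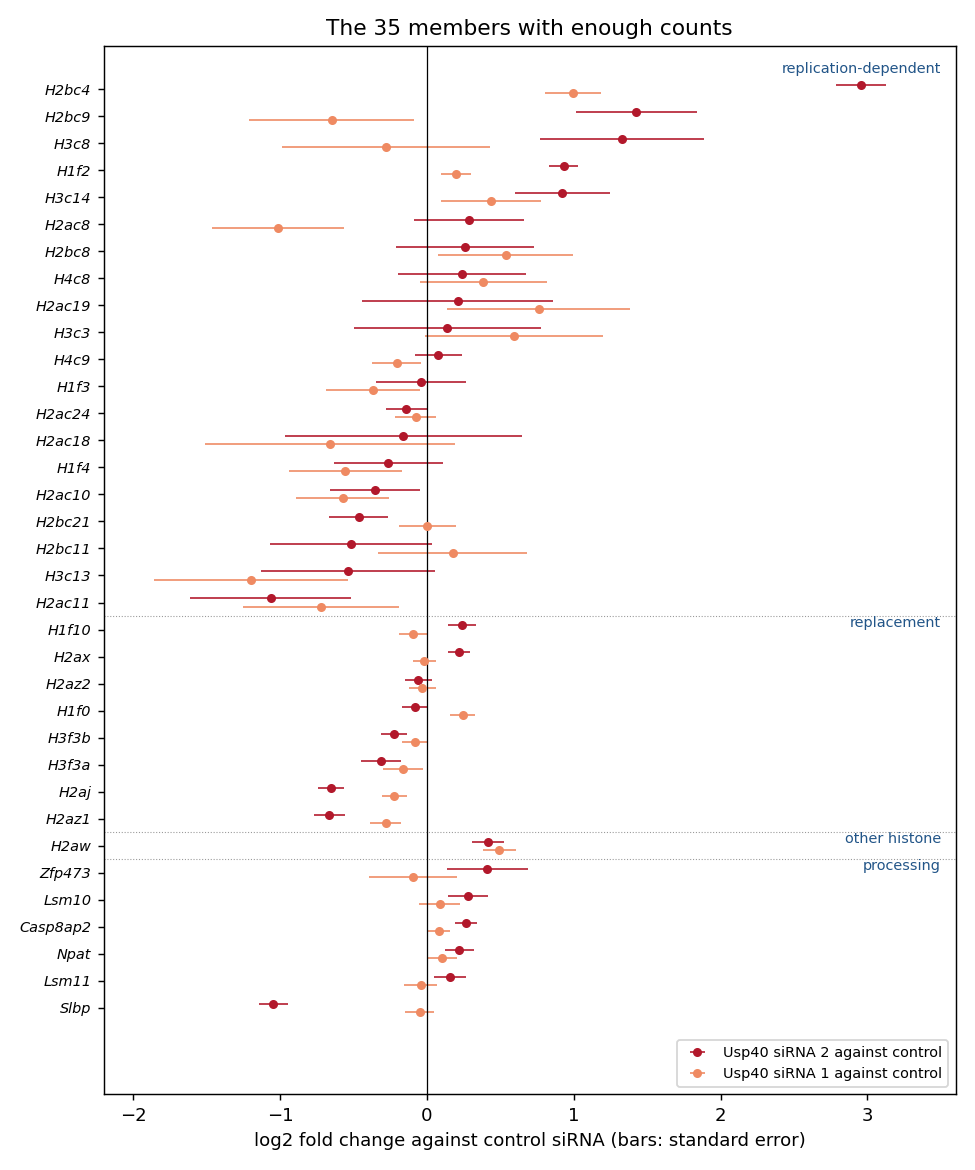
Log2 fold change against the control siRNA of the 35 members with enough counts, siRNA 2 and siRNA 1 as separate points with standard errors, ordered within 4 classes. H2bc4 stands at 2.96 with siRNA 2 and 0.99 with siRNA 1, Slbp at -1.05 with siRNA 2 and -0.05 with siRNA 1, and the replacement histones lie between -0.67 and 0.24.

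Among linker histones, H1f2 (GRCm39 chr13:23922791-23924350), which encodes the replication-dependent linker histone H1.2, had 79.3, 91.4 and 81.5 CPM with siRNA 2, 55.0, 44.7 and 51.9 with siRNA 1, and 48.1, 44.5 and 39.7 with the control. The siRNA 2 libraries were above all others, and siRNA 1 and control libraries overlapped. It rose 1.91-fold with siRNA 2 against the control, a log2 fold change of 0.93 ± 0.0985 (SE, edgeR adjusted p = 0.000151), and this call held in all 13 alternative analyses. With siRNA 1 the log2 fold change was 0.20 with a 95% interval of 0.00 to 0.39 (adjusted p = 0.423). The direct comparison gave 0.73 ± 0.0976 for siRNA 2 over siRNA 1 (adjusted p = 0.000756). H1f2 has a single annotated exon with the stem-loop 25 bases after its stop codon, and its transcript goes on to a poly(A) signal near its end. The related H1f3 and H1f4 were not called. Their log2 fold changes were -0.04 (siRNA 2) and -0.37 (siRNA 1) for H1f3, and -0.26 (siRNA 2) and -0.56 (siRNA 1) for H1f4. H1f5 and H1f1, too scarce for a test, had 73 and 61 counts in all.

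Among the other H2B genes, H2bc9 had 11, 18 and 17 counts with siRNA 2, 3, 1 and 6 with siRNA 1, and 5, 3 and 8 with the control. Its siRNA 2 libraries were higher than all others and alone reached 1 CPM. As a description, its log2 fold change was 1.43 ± 0.414 with siRNA 2 and -0.65 ± 0.562 with siRNA 1 against the control (SE). The log2 fold change of H2bc21 was -0.46 with siRNA 2 and 0.00 with siRNA 1, that of H2bc8 0.26 (siRNA 2) and 0.54 (siRNA 1), and that of H2bc11 -0.52 (siRNA 2) and 0.18 (siRNA 1), and none of these was called. The summed level of all 17 H2B genes, in CPM by library totals as for all sums of a family or class, was 65.1 ± 11.3 with siRNA 2, 25.2 ± 3.21 with siRNA 1 and 18.9 ± 2.73 with the control (SD, n = 3). Without H2bc4, the other 16 H2B genes summed to 11.2 ± 1.61 CPM with siRNA 2, 11.7 ± 3.2 with siRNA 1 and 12.1 ± 1.88 with the control, with all groups overlapping.

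H2A genes were led by H2ac24, which had 112, 112 and 105 CPM with siRNA 2, 112, 110 and 121 with siRNA 1, and 145, 88.5 and 129 with the control. Its groups overlapped, and the log2 fold change was -0.14 with siRNA 2 and -0.08 with siRNA 1 (edgeR adjusted p = 0.494 and 0.848). Without control replicate 2, which held its lowest value, it was called lower with siRNA 2 (adjusted p = 0.0379). It carried 46.6% of all counts on replication-dependent genes, but 93.3% of its 36-base words also occur in H2ac23, which has 15 counts, so the split between this pair is uncertain. H2ac6, whose start lies 250 bases from that of H2bc4 on the opposite strand, had 6, 28 and 11 counts with siRNA 2, 5, 2 and 9 with siRNA 1, and 5, 4 and 4 with the control, too few for a test, and a single siRNA 2 library held the highest. Not called were H2ac8, at a log2 fold change of 0.29 with siRNA 2 and -1.02 with siRNA 1, H2ac10, at -0.35 (siRNA 2) and -0.57 (siRNA 1), and H2ac11, at -1.07 (siRNA 2) and -0.72 (siRNA 1). H2ac18 had -0.16 with siRNA 2 and -0.66 with siRNA 1, and H2ac19 had 0.21 with siRNA 2 and 0.76 with siRNA 1, also without a call. These neighbours share 89.7% and 100% of their words with other genes, and H2ac18 varied from 67 to 9 counts within the siRNA 2 group. The 17 H2A genes summed to 123 ± 6.32 CPM with siRNA 2, 122 ± 5.79 with siRNA 1 and 131 ± 28.2 with the control (SD, n = 3).

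Of the replication-dependent H3 and H4 genes tested, none was called in any of the 3 comparisons by the main edgeR fit, with group as the only term. H3c8 had 8, 19 and 16 counts with siRNA 2, 3, 3 and 7 with siRNA 1, and 1, 3 and 12 with the control, a log2 fold change of 1.33 ± 0.558 with siRNA 2 (SE, edgeR adjusted p = 0.119) and -0.28 with siRNA 1. Without control replicate 3, H3c8 passed the filter only through siRNA 2 libraries, in which it is high, so that fit gives no test of it. H3c14 had 0.92 ± 0.322 with siRNA 2 (adjusted p = 0.0692) and 0.43 with siRNA 1, and all of its 36-base words also occur in another gene. H3c13 had -0.54 with siRNA 2 and -1.20 with siRNA 1, and H3c3 0.14 (siRNA 2) and 0.59 (siRNA 1). H4c9, the H4 gene with the most counts (604), had 0.08 with siRNA 2 and -0.20 with siRNA 1, and H4c8 had 0.24 (siRNA 2) and 0.38 (siRNA 1). The 12 H3 genes summed to 10.5 ± 0.89 CPM with siRNA 2, 8.2 ± 0.975 with siRNA 1 and 8.66 ± 1.45 with the control (SD, n = 3). The 12 H4 genes summed to 11.2 ± 0.857 CPM with siRNA 2, 8.77 ± 0.356 with siRNA 1 and 9.92 ± 2.11 with the control.

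Of the 8 replacement histone genes, 2 fell (25.0%) and none rose with siRNA 2 against the control, beside 8.4% of all genes that fell. H2az1 had 719, 752 and 703 CPM with siRNA 2, 1030, 835 and 975 with siRNA 1, and 1343, 1061 and 1047 with the control. The siRNA 2 libraries were below all others, and all siRNA 1 libraries were below all control libraries. It fell by 0.67 ± 0.106 on the log2 scale with siRNA 2 against the control (SE, edgeR adjusted p = 0.00215), which held in all 13 alternative analyses. With siRNA 1 the log2 fold change was -0.28, with a 95% interval of -0.49 to -0.07 (adjusted p = 0.264), and the difference between the siRNAs was -0.38 (adjusted p = 0.0508, from 0.00843 to 0.19 over the alternatives). The ratio of H2az1 to its paralogue H2az2 within a library was 4.83, 5.35 and 5.03 with siRNA 2, 6.62, 6.38 and 6.46 with siRNA 1, and 8.03, 7.26 and 7.84 with the control. H2az2 itself was not called, at a log2 fold change of -0.06 with siRNA 2 and -0.03 with siRNA 1.

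H2aj, an H2A variant of mammals encoded apart from the clusters, had 43.9, 47.4 and 42.3 CPM with siRNA 2, 62.5, 56.7 and 60.9 with siRNA 1, and 77.3, 69.6 and 63.2 with the control. Its groups did not overlap and stood in that order from low to high. It fell by 0.65 ± 0.0872 on the log2 scale with siRNA 2 against the control (SE, edgeR adjusted p = 0.000673), which held in all 13 alternative analyses. With siRNA 1 its log2 fold change was -0.22 (adjusted p = 0.275), and siRNA 2 was below siRNA 1 by a log2 difference of -0.43 ± 0.0877 (adjusted p = 0.0113). H1f0, the linker histone of cells that have left the cycle, had 328, 299 and 302 CPM with siRNA 2, 426, 354 and 386 with siRNA 1, and 356, 307 and 322 with the control. Its siRNA 2 and siRNA 1 libraries did not overlap, with a log2 difference of -0.33 ± 0.0853 (adjusted p = 0.040), lost in 6 of 13 alternatives. Against the control it was not called with siRNA 2 (-0.08) or siRNA 1 (0.24).

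Neither H3.3 gene was called, with log2 fold changes of -0.31 (siRNA 2) and -0.16 (siRNA 1) for H3f3a and -0.22 (siRNA 2) and -0.08 (siRNA 1) for H3f3b. H2ax, the H2A variant phosphorylated at DNA breaks, had 0.22 with siRNA 2 (edgeR adjusted p = 0.0722) and -0.02 with siRNA 1, and the linker histone gene H1f10 had 0.24 with siRNA 2 (adjusted p = 0.101) and -0.10 with siRNA 1. Between the siRNAs H1f10 differed by 0.33 (adjusted p = 0.0568), and 5 of 13 alternatives called it (adjusted p from 0.0237 to 0.195 over all of them). H2aw, an H2A gene on chromosome 11 that has both a stem-loop and a poly(A) signal, had 8.77, 9.65 and 9.41 CPM with siRNA 2, 10.1, 9.4 and 9.89 with siRNA 1, and 6.51, 7.4 and 6.99 with the control. The libraries of either siRNA lay above all control libraries. It rose by 0.42 ± 0.111 on the log2 scale with siRNA 2 and by 0.49 ± 0.111 with siRNA 1 (SE, adjusted p = 0.0269 and 0.0491), and it was not called in 5 of 13 alternatives with siRNA 2 and in 12 of 13 with siRNA 1. H2aw lies within Trim17 over 2146 bases on the same strand, and 70.9% of its words occur there too, while Trim17 holds 59 counts.

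As a class, replication-dependent genes took 7.88%, 8.57% and 8.14% of all histone counts with siRNA 2, 5.21%, 5.6% and 5.69% with siRNA 1, and 5.09%, 4.6% and 5.54% with the control. The siRNA 2 libraries were above all others, and siRNA 1 and control libraries overlapped. The 63 genes summed to 300.2 ± 18.0 CPM with siRNA 2, 218 ± 13.2 with siRNA 1 and 218 ± 33.4 with the control (SD, n = 3). Without H2bc4 the sums were 246 ± 13.8 with siRNA 2, 205 ± 13.3 with siRNA 1 and 212 ± 32.5 with the control, and the siRNA 2 and control libraries then overlapped. H2bc4, H1f2 and H2ac24 together carried 81.2% of the counts, and without them the sums were 49.7 with siRNA 2, 41.2 with siRNA 1 and 48.3 with the control, with all groups overlapping. The 8 replacement genes summed to 3351 ± 71.2 with siRNA 2, 3747 ± 317 with siRNA 1 and 4077 ± 534 with the control, of which H3f3b was 36.6% and H2az1 25.2%. Every siRNA 2 library was below every control library in that sum. In the median gene, the 18 tested replication-dependent genes other than H2bc4 and H2bc9 had a log2 fold change of 0.02 with siRNA 2 and -0.14 with siRNA 1, and the 8 replacement genes had -0.15 with siRNA 2 and -0.09 with siRNA 1. Over all genes tested the median was -0.01 with siRNA 2 and 0.01 with siRNA 1.

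**Figure D4:**
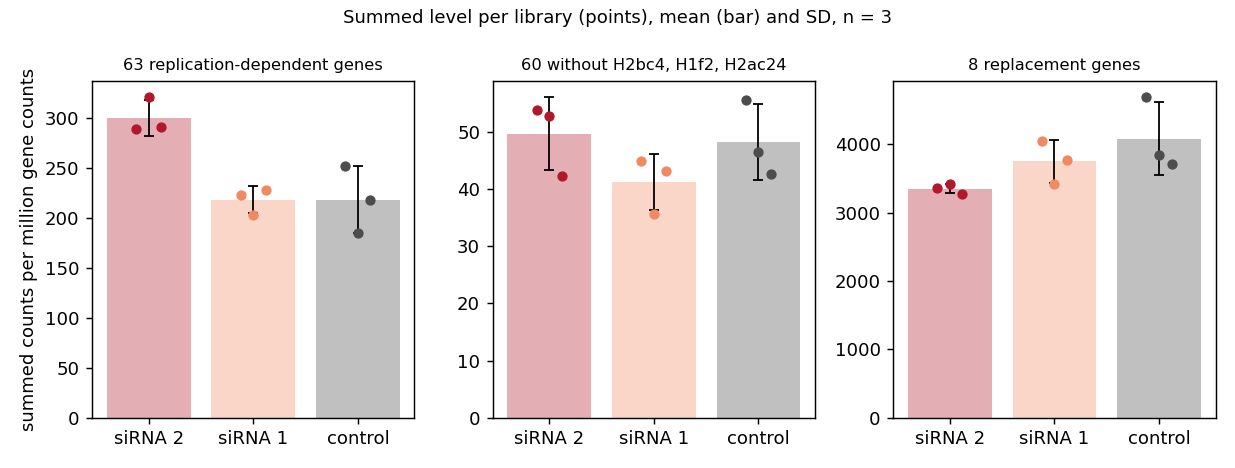
Summed CPM of the 63 replication-dependent genes, of 60 of them without H2bc4, H1f2 and H2ac24, and of the 8 replacement genes, by library (points) with mean (bar) and SD (n = 3). The replication-dependent sum was 300.2 with siRNA 2 and 218 with the control, and without the 3 named genes 49.7 with siRNA 2 and 48.3 with the control.

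An annotated transcript that ends after a poly(A) signal exists for 16 of the 63 replication-dependent genes, among them H2bc4, H1f2, H4c9 and H2bc21, and these held 42.6% of the counts of the class. They summed to 140, 177 and 163 CPM with siRNA 2, 85.1, 75.1 and 85.8 with siRNA 1, and 77.2, 67.8 and 64.5 with the control. The siRNA 2 libraries stood above the others. Without H2bc4 and H1f2 the other 14 averaged 20.5 ± 1.61 with siRNA 2, 18.4 ± 1.98 with siRNA 1 and 19.3 ± 2.89 with the control (SD, n = 3), within their spread. The 47 genes without such a transcript averaged 140 ± 10.5 with siRNA 2, 136 ± 7.3 with siRNA 1 and 148 ± 29.0 with the control. Most of that sum was H2ac24. Without H2ac24 the other 46 averaged 29.2 ± 6.59 with siRNA 2, 22.8 ± 4.23 with siRNA 1 and 29.0 ± 3.89 with the control, with all groups overlapping.

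Short reads limit how well the clusters can be resolved. The 36-base words were scored singly, whereas the reads came in pairs, so these shares can overstate what a pair leaves unresolved. In the median replication-dependent gene 56.5% of the 36-base words also occur in exons of another gene, and in 37 of the 63 genes the share is over 50%. In the replacement genes the median is 6.82% and the highest 13.6%. The shares are 14.9% for H2bc4, 10.5% for H1f2, 26.3% for H2bc9, 5.49% for H2aj and 5.67% for Slbp.

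**Figure D5:**
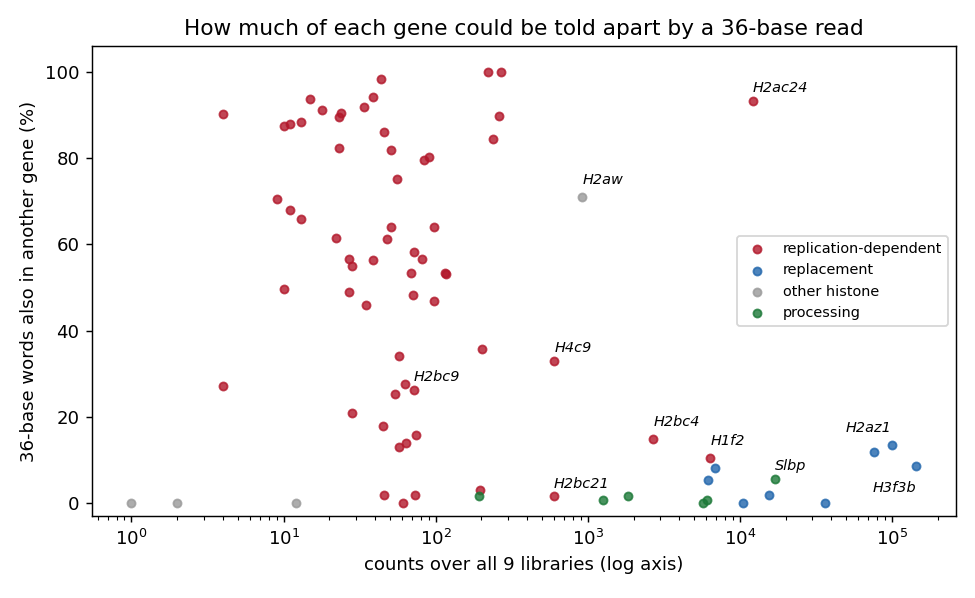
Share of each member's 36-base exon words that also occur in exons of another gene, against its counts over all 9 libraries (log axis), coloured by class. Most replication-dependent genes lie above 50% with few counts, H2ac24 stands at 93.3%, and H2bc4, H1f2 and the replacement genes lie below 15%.

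Promoters of H2bc4, H2bc9 and H1f2, picked for their high siRNA 2 values and shown as a description only, were searched from 250 bases before to 50 after the start in the deposited table, on both strands. The motifs searched were the octamer ATTTGCAT, which binds Oct factors in H2B promoters, the CCAAT box and the TATA box TATAAA, and none overlapped another in these promoters. The octamer occurred in 14 of 63 replication-dependent promoters (22.2%), in 8 of 17 for H2B and 6 of 17 for H2A genes, and in 2.28% of 25642 promoters of all genes. CCAAT occurred in 84.1% of replication-dependent promoters and 38.7% of all, and TATAAA in 57.1% and 14.4%. The H2bc4 octamer begins 117 bases before the start and is shown in capitals within 30 bases (chr13:23868054-23868083, + strand). For H2bc9 (chr13:23727563-23727812, - strand) and H1f2 (chr13:23922541-23922790, + strand) the 250 bases before the start are shown with CCAAT, or ATTGG where it lies on the other strand, in capitals.
H2bc4: ctggaaacttcATTTGCATaatcccaccca
H2bc9: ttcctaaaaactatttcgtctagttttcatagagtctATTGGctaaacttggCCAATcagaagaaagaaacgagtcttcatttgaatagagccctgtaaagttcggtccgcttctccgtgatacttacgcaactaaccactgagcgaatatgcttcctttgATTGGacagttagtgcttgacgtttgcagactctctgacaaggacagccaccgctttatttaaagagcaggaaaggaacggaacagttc
H1f2: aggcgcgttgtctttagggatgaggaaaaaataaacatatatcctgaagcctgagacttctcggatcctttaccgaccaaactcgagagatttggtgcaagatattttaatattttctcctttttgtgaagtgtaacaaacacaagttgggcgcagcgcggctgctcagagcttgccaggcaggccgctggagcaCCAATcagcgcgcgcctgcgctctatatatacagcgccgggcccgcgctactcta
H2bc9 holds 3 CCAAT boxes and H1f2 holds 1, and the octamer's letters are in neither window.

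Genes that act with the members were described by lists outside the rule. Of 28 tested cleavage and decay partners, 1 rose and 4 fell with siRNA 2 against the control, and 1 fell with siRNA 1 against the control. With siRNA 2 against siRNA 1, 1 was higher and 3 lower. In that order of comparisons, 16.2%, 1.65% and 6.74% of all genes tested were called. Ncbp2, the small subunit of the nuclear cap-binding complex, averaged 52.6 ± 5.19 CPM with siRNA 2 and 93.3 ± 8.02 with the control (SD, n = 3), and fell by 0.83 on the log2 scale (edgeR adjusted p = 0.000163). The decapping enzyme gene Dcp2 fell by 0.89, and Ncbp3 by 0.40, whereas the exonuclease gene Xrn1 rose by 0.52 (adjusted p = 0.00701, 0.00682 and 0.0266). Ncbp2, Dcp2 and Ncbp3 were also lower with siRNA 2 than with siRNA 1, by log2 differences of -0.76, -0.72 and -0.33. Snrpb, a Sm protein gene, averaged 163 ± 14.5 CPM with siRNA 1 and 253 ± 17.9 with the control, and fell by 0.63 (adjusted p = 0.00253). It was the partner that differed in the other direction between the siRNAs, at 0.54 for siRNA 2 over siRNA 1. The median log2 fold change of the list was -0.03 with siRNA 2 and -0.05 with siRNA 1.

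Of 12 poly(A) tailing genes, 1 fell with siRNA 2 against the control, Cpsf7 by 0.26 (edgeR adjusted p = 0.0321), and none was called with siRNA 1. With siRNA 1, 1 of the 12 had an unadjusted p under 0.05, beside 1608 of all 11800 genes. Of 23 chaperone and importer genes, 1 rose and 3 fell with siRNA 2 against the control. Hjurp, the chaperone of the centromeric histone, rose by 0.33, while Ubn1 and Ubn2, of the H3.3 chaperone complex, fell by 0.36 and 0.30, and Anp32e, which removes H2A.Z, fell by 0.24. Anp32e averaged 253 ± 0.889 CPM with siRNA 2 and 300 ± 23.8 with the control (SD, n = 3, adjusted p = 0.0363). Of 4 tested variant genes outside the rule, Macroh2a1 fell by 0.24 with siRNA 2. Of 15 tested genes of histone transcription, Hinfp, which drives H4 genes, rose by 0.46 (adjusted p = 0.0168), and Ldha, in human cells part of a coactivator of H2B genes, fell by 0.32. Between the siRNAs, Ubn1 and Ldha were lower with siRNA 2, by log2 differences of -0.44 and -0.36 (adjusted p = 0.0153 and 0.0295).

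Of 24 S phase genes, 3 rose and 2 fell with siRNA 2 against the control and 1 fell with siRNA 1. Mcm4, a subunit of the replicative helicase, averaged 178 ± 21.4 CPM with siRNA 2 and 340 ± 13.3 with the control (SD, n = 3), and fell by 0.93 on the log2 scale (edgeR adjusted p = 6.58e-05). Lig1, a DNA ligase gene, and Cdc6, which loads the helicase, rose by 0.28 each with siRNA 2. Dbf4, the activator of a replication kinase, fell by 0.29 with siRNA 2 and by 0.41 with siRNA 1. The median log2 fold change of the S phase list was 0.05 with siRNA 2 and -0.00 with siRNA 1. Of 10 proliferation markers, Birc5, a mitotic survival gene, fell by 0.88 and Ube2c, of the mitotic ubiquitin machinery, by 0.26 with siRNA 2, and none was called with siRNA 1. With siRNA 1, 7 of the 10 had an unadjusted p under 0.05, beside 1608 of all 11800 genes, and the list median was -0.21. Mcm4 and Birc5 were also lower with siRNA 2 than with siRNA 1, by log2 differences of -0.98 and -0.56 (edgeR adjusted p = 8.65e-05 and 0.00141). The calls in these lists stand beside the 16.2% of all genes called with siRNA 2 and the 1.65% called with siRNA 1 against the control. Between the siRNAs 6.74% of all genes were called. The part of cycling in the histone values was not tested.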

How the data were processed

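The study measured poly(A) RNA in 9 libraries. Per the labels' protocols, 1250 ng of RNA went through 12 PCR cycles, and CLC Genomics Workbench 23.02 trimmed the reads. Per the submitters' processing notes, build GRCm39 and DESeq2 were used. The sources used here do not give the alignment settings, the annotation release or whether counting used strand. The authors deposited, per the file headers, total gene read counts, RPKM and TPM per library, and a signal column of scaled CPM. The deposited table also holds the authors' group comparisons as p-values, a log2 fold change and a score (a linear fold with a sign), which were not used here.

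The counts were tested as deposited with R 4.3.3 and edgeR 4.0.16 by the quasi-likelihood test (robust, TMM, filterByExpr, group as the only term, all 9 libraries). The filter removed 13855 genes, and Benjamini-Hochberg adjustment covered the other 11800, with a threshold of 0.05. The F value of each gene gave the SE of its log2 fold change, and 95% intervals are normal. The biological coefficient of variation was 8.56%. In simulated counts for siRNA 2 against the control, 90% of 200 genes changed by a log2 of 1 were recovered. The changed genes were drawn at random from all genes tested. Recovery was not measured apart for genes with few counts, such as H3c8 and H3c13. Alternatives used limma 3.58.1 and DESeq2 1.42.0. No library repeated another (replicate pairs had a chi-square of 3.26 to 19.1 per degree of freedom). Without molecular identifiers, read copies are not independent molecules.

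Sequences were read from GRCm39 by the deposited coordinates, with GENCODE vM39 transcripts. All 83 members matched by gene ID, 66 with the same span. Every tested member is named, and members under the filter only where they have at least 10 counts; of other lists, up to 4 called genes per comparison are named. The members and lists were chosen with earlier results of these data known.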

Additional observations from a re-analysis of the deposited data

Results flagged for a closer look

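For 3 of the 32 tested members other than H2bc4, Slbp and H2bc9 (9.38%), the 2 Usp40 siRNAs differed by the direct edgeR test of siRNA 2 against siRNA 1 (adjusted p 0.000756 to 0.040). Of all genes tested, 6.74% differed in that test. H1f2 differed by a log2 of 0.73, with mean CPM of 84.1 ± 6.43 with siRNA 2 and 50.5 ± 5.27 with siRNA 1 (SD, n = 3). H2aj differed by -0.43, at 44.5 ± 2.62 CPM with siRNA 2 and 60.0 ± 3.03 with siRNA 1. H1f0 differed by -0.33, at 310 ± 16.2 CPM with siRNA 2 and 389 ± 36.0 with siRNA 1. H2bc9 differed by 2.07, with 11, 18 and 17 counts with siRNA 2 and 3, 1 and 6 with siRNA 1, but it entered the test only through its high siRNA 2 libraries, so its value is a description. The cause of these differences was not tested.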

How the results depend on the processing

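Of the members other than H2bc4, Slbp and H2bc9, H1f2, H2az1 and H2aj kept their calls for siRNA 2 against the control in all 13 alternatives (other normalizations, tests, filters and fits, and each library of the comparison left out), as did H1f2 for siRNA 2 against siRNA 1. No member reversed. Counts of the 35 tested members include H2bc4, Slbp and H2bc9, which carry no test. They are descriptive and lend those genes no support. For siRNA 1 against the control the count was 2, and 0 with limma-voom. It was 1 (H2bc4, not read as a call) with library totals only, no filter on low counts, the replicate block, only the compared groups or DESeq2. The same 1 stayed without members of over 50% shared words, a cut chosen after seeing the data. Leaving out 1 library gave 0 to 1 (H2bc4, again not read as a call) for siRNA 1 against the control. For siRNA 2 it was 5 to 11 against the control (main 8, and 5 without siRNA 2 replicate 1, 2 or 3). Against siRNA 1 it was 3 to 6 (main 6, and 3 without siRNA 2 replicate 3). Without control replicate 3, H3f3a and H3c14 were also called for siRNA 2 against the control, as was Lsm10 without control replicate 1 (adjusted p = 0.042, 0.033 and 0.0283). In the fit without control replicate 3, H3c8 passed the filter only through siRNA 2 libraries and H3c10 only through control libraries. Each is high in that group, so neither is read as a call, although the count of 11 includes both. H3c10 had 0, 2 and 0 counts with siRNA 2, 3, 0 and 4 with siRNA 1, and 15, 15 and 0 with the control, the last in the library left out. Casp8ap2 lost its call without any 1 of the 6 libraries, and H2aw without any siRNA 2 library or control replicate 1 (adjusted p 0.0513 to 0.117). H2ac24 was called without control replicate 2 (0.0379). With siRNA 1 against the control, H2aw lost its call without any 1 of the 6 libraries (0.0938 to 0.173). Between the siRNAs, H1f0 lost its call without any library but siRNA 1 replicate 2 (0.0751 to 0.168), and H2aj without siRNA 1 replicate 3 or siRNA 2 replicate 1 or 3 (0.0559 to 0.0732), while H2ac8 was called without siRNA 1 replicate 1 (0.0432) and H2az1 without siRNA 1 replicate 2 (0.0218). Library totals only added H2ax for siRNA 2 against the control (0.0458). DESeq2 gave 6 members for siRNA 2 against the control and 8 against siRNA 1.

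Over all genes, the 195 calls for siRNA 1 against the control became 37 with only the compared groups, and 36 to 234 with 1 library left out (49 without control replicate 2, 76 without siRNA 1 replicate 2 and 36 without siRNA 1 replicate 3). The 1913 calls for siRNA 2 against the control became 636 to 2608 (1001 without control replicate 2, and 862, 947 and 636 when siRNA 2 lost replicate 1, 2 or 3). The 795 calls for siRNA 2 against siRNA 1 became 1284 with only the compared groups and 361 to 816 with 1 library left out (495 and 375 when siRNA 1 lost replicate 1 or 3, and 436, 403 and 361 when siRNA 2 lost replicate 1, 2 or 3). Fewer samples enter these fits. With library totals only, 60.2% of calls for siRNA 2 against the control were higher (1190 higher, 786 lower), against 48.2% with TMM (922 and 991), and 49.2% for siRNA 2 against siRNA 1 (403 and 416), against 37.0% (294 and 501).

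The replication-dependent sums were 246 with siRNA 2 and 205 with siRNA 1 without H2bc4, and as deposited TPM 998 with siRNA 2, 797 with siRNA 1 and 825 with the control. The replacement sums without H3f3b were 2081 with siRNA 2, 2381 with siRNA 1 and 2630 with the control, and as TPM 4558 with siRNA 2, 4960 with siRNA 1 and 5474 with the control. Whether the shared replicate numbers pair the libraries was not settled. The correlation of deviations was -0.14 to 0.43 in same-numbered pairs and -0.43 to 0.38 in others, and over 0.1 in 4 of 9 and 5 of 18. With the replicate block 1, 9 and 9 members and 226, 2295 and 927 genes were called for siRNA 1 against the control, siRNA 2 against the control and siRNA 2 against siRNA 1. The block added H3c14 for siRNA 2 against the control (adjusted p = 0.0391), and H1f10, H2ac8 and H2az1 for siRNA 2 against siRNA 1 (0.0359, 0.0463 and 0.0259), and dropped H2aw for siRNA 1 against the control (0.0728). Depth limits the 48 untested members, which held no count above 28.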
